A study of Caenorhabditis elegans with 12 samples.

Results

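The numbered col genes of Caenorhabditis elegans, most of which encode collagens of the worm's cuticle, were followed across 4 groups of young adult worms. A gene was taken when an array probe set carried a single gene symbol made of col and a number, and where a gene had more than 1 such probe set, that with the greatest average signal was used. This gave 128 genes out of the 17118 genes with a single symbol on the array. In the RefSeq table for assembly WBcel235, which lists 156 protein-coding numbered col genes, 126 of the 128 are protein coding and 2, col-66 and col-182, are pseudogenes. A further 20 col genes are named only by probe sets shared between genes and are described apart, and 10 have no probe set in the data used and were not analysed here.

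All worms were wild-type hermaphrodites, 3 days old when used, held unfed in a salt solution (k-medium) at 20 °C over 24 h. The control group had no further treatment, the TiO2 group was held with titanium dioxide, the UV group was irradiated for the first 4 h and kept for another 20 h, and the UV+TiO2 group had both. Each group had 3 samples of total RNA from whole worms, each measured on its own Affymetrix array. Nothing in the labels says whether these were separate cultures, and p-values then reflect the spread among these samples alone, which may be technical. The TiO2 dose and the UV wavelength are not given in the sources used here. In RNA from whole worms, fewer cells of a type and less RNA per cell cannot be told apart.

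The cuticle is an extracellular coat that the epidermis, the sheet of cells under it, secretes afresh at each moult. It consists mainly of small collagens with a glycine repeat, which are hydroxylated, folded into trimers, trimmed by proteases and cross-linked. The collagen genes form a large family, and many members are used in particular larval stages, in the dauer larva (a stress-resistant resting form) or in the adult.

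Levels are log2 expression values as deposited, so a difference of 1 is a 2-fold change, and changes are taken only within a probe set. Signals of different probe sets are set side by side only to choose a gene's probe set and the 10 brightest genes. Changes are differences of group means with their standard error (SE), and a gene was called changed at a limma p below 0.05 after Benjamini-Hochberg adjustment over all 22548 probe sets tested. The median value of an array lay between 6.36 and 6.63 and was lower in the 3 UV arrays (6.36 to 6.45) than in the 3 control arrays (6.55 to 6.63). The mean over the 128 col genes spread most among the control arrays, from 8.29 in replicate 1 to 8.65 in replicate 3.

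After UV, most of the col genes were higher and a small number were much lower. Against control, 89 of 128 changed (69.5%, background of all probe sets 50.6%), of which 72 (56.2%) rose and 17 (13.3%) fell. Among all probe sets, 27.5% rose and 23.1% fell, so the rises made up a larger share of the col genes than of the array and the falls a smaller one. A rise of at least 2-fold was called for 26 col genes (20.3%, background 3.9%) and a fall of at least 2-fold for 6 (4.69%, background 10.1%). The median change was 0.44 for the col genes and 0.11 for all probe sets, and the lower and upper quartiles of the col genes were 0.08 and 0.79. The mean over all 128 genes was 8.85 to 8.88 in the UV arrays, above each control array.

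**Figure D1:**
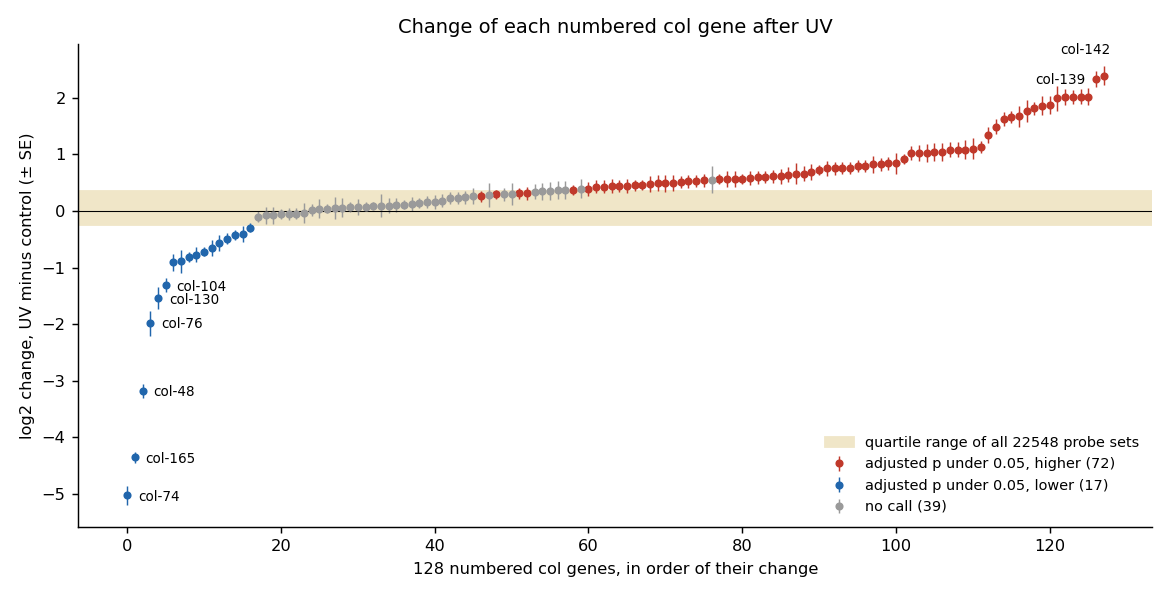
The log2 change after UV (vertical axis, UV minus control, with SE bars) is plotted for each of the 128 col genes in order of its size. Red points passed the test as higher, blue points as lower and grey points did not pass, and the band runs from the lower to the upper quartile of all probe sets. The falls reach -5.02 at col-74, while the largest rise is 2.39 at col-142.

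The family's range was uneven. The rises ended at about 5-fold, and 3 genes stood far below the rest, with falls of more than 3 log2 units. Centring each array on its median moved the median of all probe sets from 0.11 to 0.29 and that of the col genes from 0.44 to 0.61. With this centring 97 col genes rose and 15 fell. The shares of all probe sets that rose or fell with it are not given here, so these counts have no matching background.

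The adult-stage genes were higher after UV. The best known is col-19, which is switched on at the last moult and is widely used as a marker of the adult epidermis. Its level was 11.50, 11.93 and 11.80 in the control arrays and 12.91, 12.86 and 12.85 in the UV arrays. All 3 UV arrays lay above all control arrays, and the rise was 1.13 (SE 0.11, 2.18-fold, adjusted p = 2.11e-06). The TiO2 arrays read 11.61, 11.74 and 11.78 and overlapped with control. With both treatments the arrays read 12.88, 12.78 and 12.86 and overlapped with UV alone.

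Of the col genes, col-142 rose the most after UV. This gene and its genomic neighbour col-141 have been described as adult genes that respond to BMP signalling, the pathway that sets body size in C. elegans. The control arrays for col-142 read 8.68, 9.38 and 9.38 and the UV arrays 11.60, 11.58 and 11.42. The groups were far apart, with a rise of 2.39 (SE 0.17, 5.23-fold, adjusted p = 1.38e-07). For col-141 the rise was 0.82 (SE 0.11), from 6.86, 6.80 and 6.79 to 7.62, 7.47 and 7.83. The third BMP-responsive gene of the list, col-41, read 7.42, 7.51 and 8.29 in control and 8.02, 8.23 and 8.61 with UV. These groups overlapped, and the change of 0.55 (SE 0.24) did not pass (adjusted p = 0.0682). It passed without control replicate 3, at 0.83.

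A gene set linked to the fourth larval stage, the last before adulthood, was also higher. All 4 members, col-38, col-49, col-63 and col-138, rose, with changes from 0.84 to 2.02. For col-38 the control arrays read 6.38, 6.51 and 6.90 and the UV arrays 8.63, 8.49 and 8.75, a 4.07-fold rise. For col-138 they read 6.38, 6.77 and 7.0 against 8.30, 8.19 and 8.13. The level of col-63 ranged more widely in control, at 9.24, 9.43 and 10.05, yet all UV arrays, at 10.47, 10.28 and 10.49, lay above it. The gene lin-29 encodes a transcription factor that drives the larva-to-adult switch of the epidermis, and it showed a change of -0.08 (SE 0.13, adjusted p = 0.64).

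The genes collected for larval moults did not all go the same way. Both col-12 (0.57) and col-17 (0.75) rose, whereas col-14 fell by 0.81 on the log2 scale. For col-14 the control arrays read 9.96, 10.19 and 9.97 and the UV arrays 9.12, 9.27 and 9.28, with no overlap. Of the dauer list 2 genes were measured. The level of col-2, a collagen gene of the dauer larva, went from 6.91, 7.37 and 7.69 to 8.36, 8.50 and 8.42. That of col-40 went from 4.30, 4.77 and 4.66 to 5.44, 5.81 and 5.55, and both genes rose, by 1.10 and 1.02. Genes collected for the adult, the fourth larval stage and the dauer larva thus rose in the same samples, as did col-12 and col-17. These lists are short, and 56.2% of all col genes and 27.5% of all probe sets rose.

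The level of col-120, whose extra expression has been reported to lengthen the life of worms, rose by 1.81 (SE 0.11, 3.52-fold). Its control arrays read 4.85, 5.17 and 5.33 and its UV arrays 6.96, 6.85 and 6.99. By contrast col-99, which encodes a transmembrane collagen of neurons and muscle and no part of the cuticle, read 6.12, 6.12 and 6.75 in control and 6.56, 6.48 and 6.80 with UV. These groups overlapped, and the change of 0.28 (SE 0.21) did not pass on the probe set used (adjusted p = 0.277). A dimmer second probe set for col-99 did pass (0.46, SE 0.10, adjusted p = 0.00182).

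The other large rises were in genes with no described role that could be given here. The level of col-139 went from 9.68, 10.20 and 10.11 in control to 12.37, 12.43 and 12.17 with UV, a 5.02-fold rise (adjusted p = 4.74e-08). The level of col-143 went from between 10.38 and 11.07 in control to 12.90, 12.83 and 12.80. That of col-80 went from 11.09, 11.68 and 11.79 to 13.49, 13.36 and 13.29. In each case control replicate 1 was the lowest of the control arrays and the UV arrays lay close together. The remaining large rises were col-129 (2.01), col-71 (2.01), col-101 (1.99) and col-98 (1.87), all without overlap between groups.

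**Figure D2:**
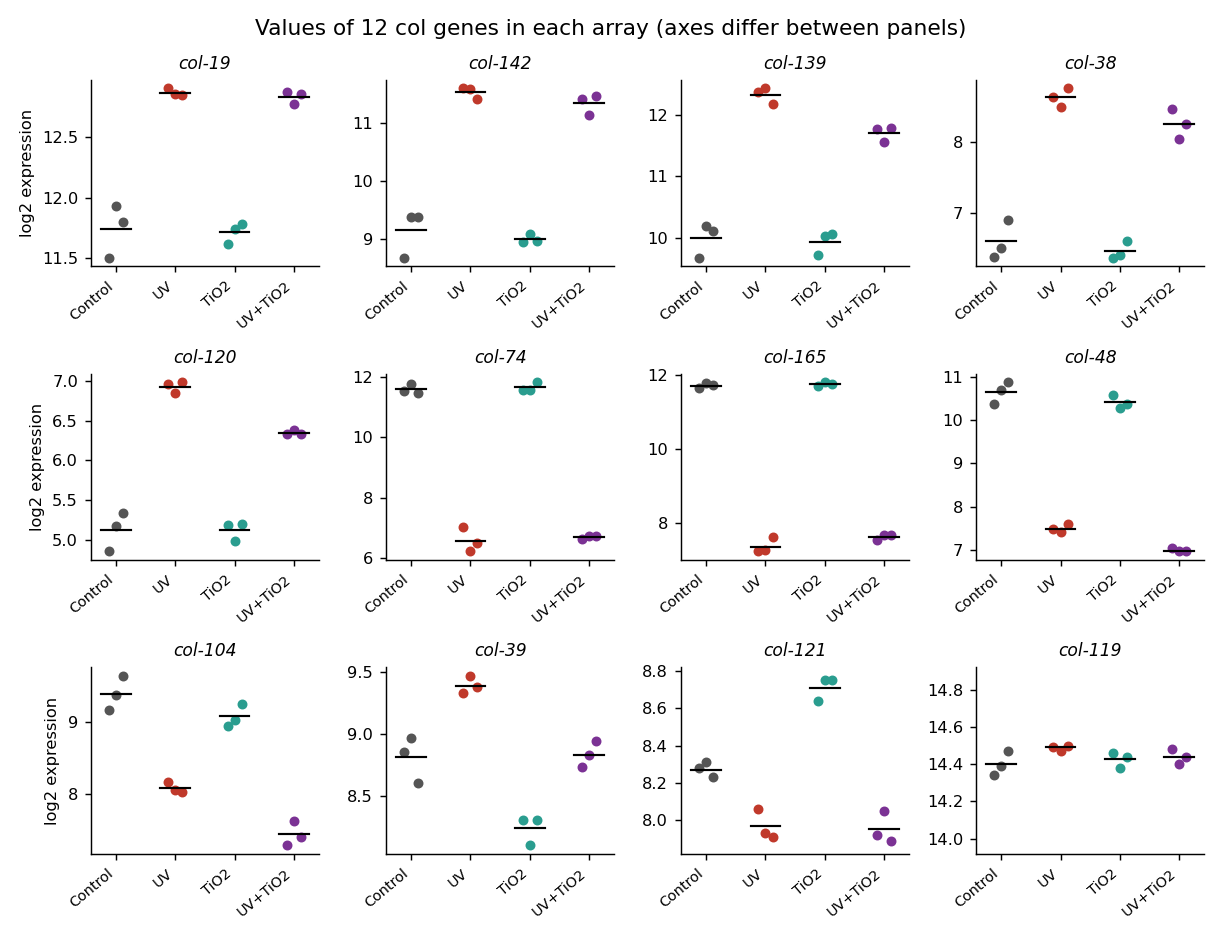
Each panel plots the log2 expression of 1 col gene (vertical axis, own range per panel) in the 3 arrays of each group as points, with a line at the group mean. The genes col-19, col-142, col-139, col-38 and col-120 were higher in both UV groups, and col-74, col-165, col-48 and col-104 were lower. The TiO2 arrays of col-39 lay below control and those of col-121 above it, and col-119 stayed between 14.34 and 14.50 in all 12 arrays.

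The 3 deepest falls were col-74, col-165 and col-48. The level of col-74 was 11.54, 11.76 and 11.48 in control and 7.03, 6.21 and 6.48 with UV, a 32.5-fold fall (log2 change -5.02, SE 0.17, adjusted p = 2.53e-10). That of col-165 was 11.65, 11.78 and 11.72 against 7.23, 7.26 and 7.61, a 20.4-fold fall (-4.35, SE 0.10). For col-48, 10.39, 10.70 and 10.89 in control became 7.47, 7.40 and 7.59, a 9.06-fold fall (-3.18, SE 0.12). Each gene had a narrow spread within groups compared with its fall. No UV array came near any control array for these genes.

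Smaller falls followed in col-76 (-1.98), col-130 (-1.54) and col-104 (-1.31). The level of col-76 varied among control arrays, from 9.19 to 10.18, but stayed above the UV arrays, which read 7.46, 7.78 and 7.79. The remaining 11 falls were below 2-fold. They included col-113 (-0.91), col-97 (-0.89), col-14 (-0.81) and col-58 (-0.77), and the smallest was col-121 (-0.30).

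The brightest genes did not reach the largest changes of the family. The 10 col genes with the highest mean were col-119, col-124, col-93, col-125, col-140, col-160, col-122, col-17, col-43 and col-159, with changes between -0.42 and 0.91, of which 6 rose and 1, col-125, fell. The highest value of any probe set on an array lay between 14.40 and 14.59. The 12 arrays read 14.34 to 14.50 for col-119. For col-124 the control arrays read 13.45, 13.77 and 13.77, and its UV arrays, at 14.57, 14.59 and 14.58, were at the highest value of their arrays. Whether changes so close to the highest value are compressed was not tested.

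Collagen genes resemble each other, and the suffix of a probe set marks whether it can detect related sequences. For the 78 genes on a probe set with the plain suffix _at, 45 rose and 8 fell, with a median of 0.43. For the 28 genes on _s_at sets, which match several transcripts alike, 18 rose and 5 fell, with a median of 0.56. For the 22 genes on _x_at sets, which can bind related sequences, 9 rose and 4 fell, with a median of 0.14. The rises therefore outnumbered the falls in each class, as they did over all probe sets (27.5% higher and 23.1% lower). The median of the _x_at class was near the 0.11 of all probe sets. Shares over all probe sets of each suffix are not given here.

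In RefSeq's gene order 12 pairs of the 128 genes lie next to each other on the chromosome, and they hold 22 genes because some stand in more than 1 pair. In 7 pairs both rose after UV, in 3 pairs 1 rose and the other did not pass, and in 1 pair neither passed. Of all col genes 56.2% rose, but that is a share of single genes and no baseline for pairs. Whether neighbours were more alike than other col genes was not tested. The pairs with both higher included col-141 and col-142, col-39 and col-80, and col-159 and col-160. The exception was col-104, which fell by 1.31, beside col-105, which rose by 0.37. Neighbouring col genes can be close copies, and binding of 1 gene's RNA to the other's probes was not tested.

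Where a gene had a second probe set, the pair did not always give the same call. Of 16 such genes, both probe sets gave the same call after UV for 5, only 1 was called for 8, neither for 3, and none had opposite calls. The widest gaps, picked out after the values were seen, were in col-109 and col-121. The probe set used for col-109 read 8.81, 8.75 and 8.74 in control and 9.05, 8.84 and 8.83 with UV, which did not pass (0.14, adjusted p = 0.189). Its second probe set read 9.34, 9.84 and 9.84 in control and 7.61, 7.79 and 7.84 with UV, a 3.8-fold fall. For col-121 the probe set used fell by 0.30 on the log2 scale and the second by 3.16. The second read 8.58, 9.22 and 8.48 in control and 5.62, 5.46 and 5.72 with UV. For both genes the second set was the brighter one in control and the dimmer one over all 12 arrays, so the rule of the highest overall mean passed over the set that fell.

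Probe sets shared between col genes added 17 measurements, for which the gene cannot be named singly. Of these, 7 rose and 7 fell after UV (background 27.5% higher and 23.1% lower), with a median of 0.15. Counted by probe set, falls were thus as many as rises. Several of these sets name the same genes, so their counts cannot be set directly against those of the 128 genes. The set for col-161 and col-162 had the largest rise, 2.53 (SE 0.11), from 6.46, 6.70 and 6.58 to 8.86, 9.20 and 9.28. The set for col-7, an adult gene, and col-62 rose by 1.74 (SE 0.14). The 3 sets for col-10 and col-144 fell, with changes between -0.56 and -0.26, as did the 3 sets for the closely numbered col-166 to col-170, between -0.73 and -0.61. The 2 sets for col-12 and the larval gene col-13 rose by 0.49 and 0.54.

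The named cuticle collagens, known from mutants with short, rolling or blistered bodies, also split in both directions. Of 18 measured, 11 rose (61.1%, background 27.5%) and 5 fell (27.8%, background 23.1%) after UV, with a median of 0.45, so the share of falls was near that of the array. The rises included dpy-5 (1.57), sqt-1 (1.09), sqt-2 (1.09), rol-6 (1.02), rol-8 (1.01), bli-1 (0.78) and bli-2 (0.77). The falls were dpy-14 (-5.67), dpy-17 (-4.40), dpy-7 (-2.07), dpy-2 (-1.14) and dpy-3 (-0.88). Of the 3 collagens outside the cuticle, the basement membrane genes emb-9 and let-2 changed by 0.46 and -0.41 in opposite directions, and cle-1 did not pass (0.33, adjusted p = 0.092).

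Genes that process collagen were more often lower than higher. Of 20 measured, 11 fell (55.0%, background 23.1%) and 3 rose (15%, background 27.5%) after UV, with a median of -0.47 beside 0.11 for all probe sets. Among catalytic subunits of prolyl 4-hydroxylase, an enzyme that stabilizes the collagen helix, dpy-18 (-1.08) and phy-2 (-1.44) fell and phy-3 rose. Also lower were the procollagen protease dpy-31 (-1.52), the moulting protease nas-37 (-1.74) and the cross-linking oxidase bli-3 (-0.85). So were its partner tsp-15 (-1.92) and the peroxidase mlt-7 (-1.72). The rises were phy-3 (0.36), pdi-1 (0.29) and bli-5 (0.63).

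Of 20 regulators of the epidermis 14 fell (70.0%, background 23.1%) and 2 rose (10.0%, background 27.5%), with a median of -0.77. The heterochronic factor hbl-1 changed by -4.0, the moulting-linked factor blmp-1 by -2.88 and the epidermal GATA factor elt-3 by -2.09, all falls. Members of the BMP pathway were lower too, with changes of -1.13 for the ligand dbl-1, -0.86 for sma-2, -0.75 for sma-3, -1.27 for sma-4 and -1.92 for sma-9. The moult regulator nhr-23 rose by 0.42 and lin-28 by 0.54. For skn-1, a stress-response factor reported to act on collagen genes, the change was 0.45 (adjusted p = 0.05) and did not pass.

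Markers of tissues and stages also changed after UV, and most of the lists had more falls than rises, unlike the col genes. The background was 27.5% higher and 23.1% lower. Embryo and first larval stage markers were lower in 9 of 16 cases and higher in 4, and array means over the list were 8.08 to 8.27 in control and 6.74 to 6.83 with UV. The deepest falls were in cut-3 (-5.64), which encodes a cuticlin, the hatching protease hch-1 (-4.01) and the embryonic matrix genes noah-1 (-3.65) and noah-2 (-3.26), sizes like those of col-74 and col-165. Of 10 epidermis markers 8 fell and 1 rose, and their array means were 8.28 to 8.47 in control and 6.93 to 6.96 with UV. This list overlaps with those above: elt-1, elt-3 and nhr-23 are also among the epidermal regulators, and tsp-15 among the genes that process collagen. Of 8 neuron markers 6 fell and 1 rose, and their array means went from 9.16 to 9.25 down to 7.63 to 7.83. Of 10 germline markers 6 rose and 1 fell, and their array means went from 11.32 in each control array to between 11.55 and 11.58. Yolk protein genes, made by the adult intestine, split into 1 rise (vit-1, 3.38) and 3 falls among 5 measured, and their array means were 12.58 to 12.66 in control and 12.92 to 13.07 with UV. The part of these markers in the changes of the col genes was not tested.

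**Figure D3:**
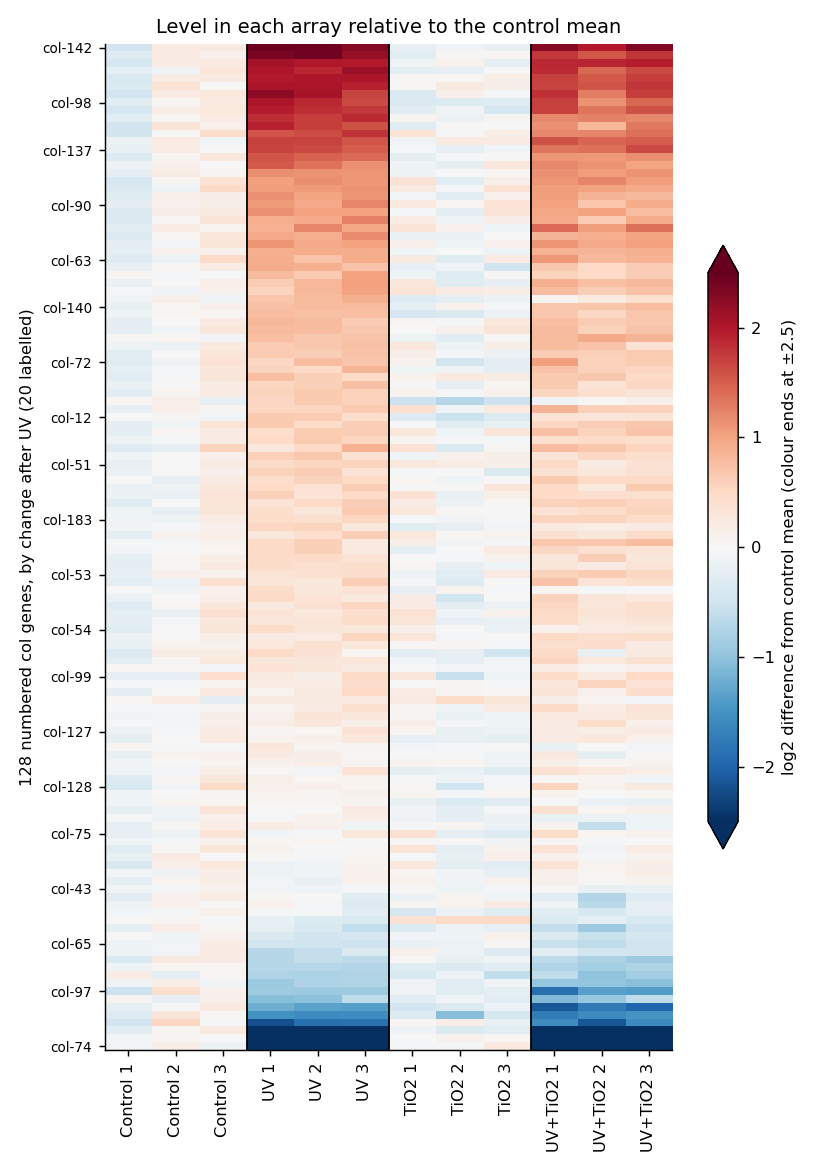
Rows are the 128 col genes in order of their change after UV (20 labelled), columns are the 12 arrays, and colour is the log2 difference from the gene's control mean, ending at ±2.5. The UV and UV+TiO2 columns share the red upper and blue lower rows, and the TiO2 columns stay pale. Control replicate 1 is bluer and control replicate 3 redder over much of the upper rows.

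The UV difference was measured a further time in worms that also had TiO2, with no array shared between both comparisons. UV+TiO2 against TiO2 gave 94 calls among the 128 genes (73.4%, background 54.5%), with 77 rises (60.2%, background 32.3%) and 17 falls (13.3%, background 22.2%). Of the 72 genes that rose without TiO2, 66 (91.7%) also rose with it, and these were 85.7% of the 77. Of the 17 that fell, 16 (94.1%) also fell. The matching shares over all probe sets are not given here. Both comparisons use the same estimate of a probe set's spread, from all 12 arrays, so their calls are not fully separate. No gene was called in opposite directions, and 121 of 128 genes (94.5%) changed with the same sign, against 90.3% of all 17118 genes. Across the col genes the changes correlated with Pearson's r = 0.977 and Spearman's rho = 0.939, and across all genes with r = 0.965. Genes are not independent replicates, so these are descriptions.

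**Figure D4:**
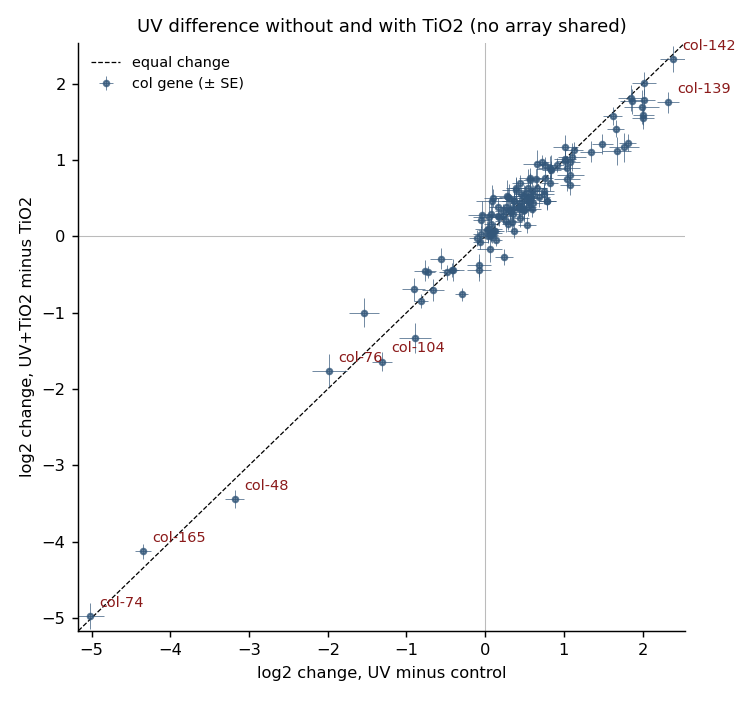
Each point is 1 of the 128 col genes, with the log2 change of UV against control on the horizontal axis, that of UV+TiO2 against TiO2 on the vertical axis, SE bars on both and a dashed line of equal change. The genes follow the line, from col-74 (-5.02 and -4.98) to col-142 (2.39 and 2.33).

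Of the 10 largest rises in each of these comparisons 9 were shared, and of the 10 largest falls 8. For col-74 the TiO2 arrays read 11.58, 11.58 and 11.84 and the UV+TiO2 arrays 6.63, 6.72 and 6.71, a fall of 31.6-fold. For col-142 they read 8.95, 9.09 and 8.97 against 11.42, 11.13 and 11.46, a rise of 5.03-fold. Next to col-142 among the rises were col-143 (2.01), col-80 (1.81), col-38 (1.79) and col-98 (1.77). After col-74 the falls were col-165 (-4.13), col-48 (-3.44), col-76 (-1.76) and col-104 (-1.64). A rise in this comparison alone was called for 11 genes, among them col-41 (0.64, adjusted p = 0.0353) and col-99 (0.53, adjusted p = 0.049), and 1 fall, that of col-184. A change was called without TiO2 alone for 7 genes, 6 higher and col-131 lower. A total of 27 genes passed in neither comparison, among them col-119, col-122 and col-43.

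Worms with both treatments, set against control, had 92 changed col genes (71.9%, background 54.5%), with 73 rises (57.0%, background 31.9%) and 19 falls (14.8%, background 22.6%). This comparison shares its control arrays with that of UV alone. The rise of col-142 was 2.19, beside 2.39 with UV alone, and the deepest falls were col-74 (-4.91, beside -5.02), col-165 (-4.09, beside -4.35) and col-48 (-3.68, beside -3.18). The level of col-8 went from 11.47, 11.82 and 11.56 in control to 13.21, 13.08 and 13.13. The level of col-137 went from 4.66, 5.03 and 4.85 to 6.19, 6.22 and 6.51. Both rises were without overlap, at 1.52 and 1.46, beside 1.66 and 1.62 with UV alone. Over all 4 groups, 98 of the 128 genes (76.6%, background 55.5%) differed by limma's moderated F-test.

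TiO2 alone changed no col gene past the threshold by limma, and the background was 0.00443%, a single probe set. At an unadjusted p below 0.05 there were 12 col genes (9.38%, background 4.55%), 2 higher (1.56%, background 1.85%) and 10 lower (7.81%, background 2.71%). The changes ran from -0.61 to 0.44 with a median of -0.05, and the 95% interval lay within a 2-fold change either way for 127 of 128 genes. The exception was col-130, whose lower limit was -1.01. The sign of the median depended on the control arrays: it was -0.14 without control replicate 1 and 0.04 without control replicate 3.

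The genes with the smallest p under TiO2 were col-39 on the lower side and col-121 on the higher. The level of col-39 was 8.85, 8.97 and 8.60 in control and 8.30, 8.10 and 8.30 with TiO2. All TiO2 arrays lay below all control arrays, but the change of -0.57 (SE 0.11) did not pass (adjusted p = 0.205). For col-121 the arrays read 8.28, 8.31 and 8.23 against 8.64, 8.75 and 8.75, without overlap, and the change of 0.44 (SE 0.08) did not pass either (adjusted p = 0.205). The next smallest on the lower side were col-12 (-0.40, adjusted p = 0.425) and col-107 (-0.32, adjusted p = 0.496). On the higher side they were col-153 (0.32, adjusted p = 0.966) and col-52 (0.23, adjusted p = 1.0).

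Adding TiO2 to UV likewise changed no col gene past the threshold by limma, with a background of 0.0887%. The median against UV alone was -0.05, compared with 0.02 for all probe sets. At an unadjusted p below 0.05 there were 23 genes (background 6.14%), 21 lower (16.4%, background 3.11%) and 2 higher (1.56%, background 3.03%). The UV+TiO2 arrays lay wholly below the UV arrays for 33 genes (25.8%, background 8.27%) and wholly above them for 4 (3.12%, background 9.85%). The 95% interval was within 2-fold for 126 of 128 genes. With array weights, which gave UV replicate 2 a weight of 5.82 and control replicate 1 a weight of 0.279, 20 col genes were lower and 1 higher. The share of all probe sets called with these weights is not given here, so this count has no background beside it.

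The genes with the smallest p were col-91, col-39 and col-120. The level of col-120 was 6.96, 6.85 and 6.99 with UV and 6.33, 6.38 and 6.33 with both, a change of -0.59 (SE 0.11, adjusted p = 0.0955) that did not pass. Its call varied among the alternatives. It passed without control replicate 1 (adjusted p = 0.0242), an array of neither group, with the change still -0.59. It also passed with quantile normalization (adjusted p = 0.0147), median centring (0.0474), array weights (0.000778), only the arrays compared (0.0359) and the array SD as a covariate (0.0186). It did not pass under the remaining alternatives. The level of col-91 was 7.95, 8.04 and 8.13 against 7.31, 7.48 and 7.65, a change of -0.56 (SE 0.11, adjusted p = 0.084). That of col-39 was 9.33, 9.47 and 9.38 against 8.73, 8.83 and 8.94, also -0.56 (SE 0.11, adjusted p = 0.0954). In all 3 genes the groups did not overlap. On the higher side the smallest p values belonged to col-163 (0.27), col-165 (0.26) and col-40 (0.26), none of which passed.

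The TiO2 difference without UV and that with UV share no array, and they were weakly related. Of the 128 genes, 76 (59.4%) had the same sign in both, against 50.0% of all genes, and the correlation across the col genes was r = 0.269 (Spearman's rho = 0.221), against 0.08 over all genes. Averaged over both UV states, a contrast chosen after the data were seen, 1 col gene passed (0.781%, background 0.0665%). This was col-39, lower by -0.57 (SE 0.08, adjusted p = 0.0212), in which the 3 TiO2 arrays lay below the 3 control arrays and the 3 UV+TiO2 arrays below the 3 UV arrays. The call was lost without any of 8 single arrays, among them control replicate 2 (adjusted p = 0.0648) and UV replicate 2 (adjusted p = 0.118), with the change between -0.59 and -0.53. It was also lost with a replicate block (adjusted p = 0.0845) and with quantile normalization (adjusted p = 0.0753). The next genes, col-91 (-0.40, adjusted p = 0.106), col-104 (-0.48, adjusted p = 0.115) and col-12 (-0.32, adjusted p = 0.125), did not pass. At an unadjusted p below 0.05 this contrast had 26 col genes (20.3%, background 6.02%), 25 of them lower.

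**Figure D5:**
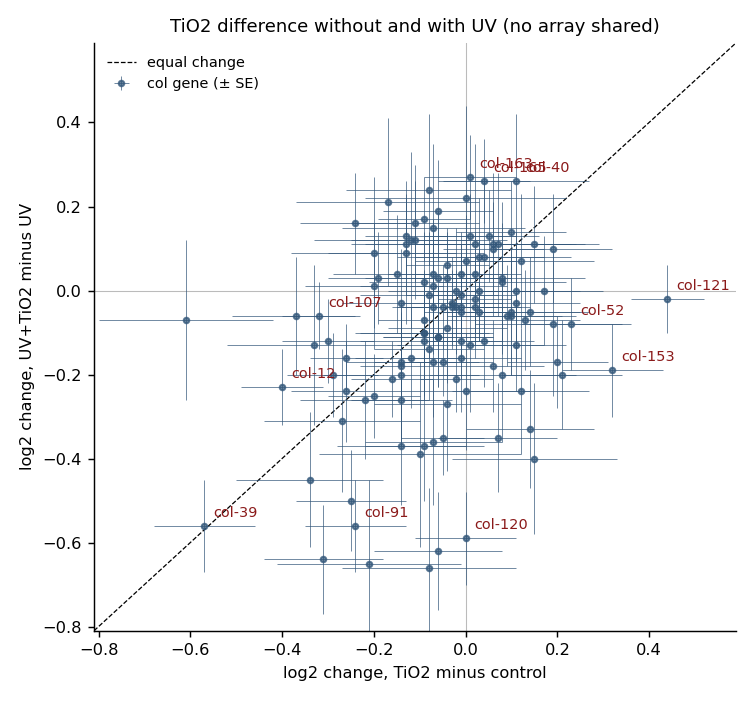
Each point is 1 of the 128 col genes, with the log2 change of TiO2 against control on the horizontal axis and that of UV+TiO2 against UV on the vertical axis, SE bars on both and a dashed line of equal change. Most genes lie within their SE of 0 on at least 1 axis, and col-39 lies on the line at -0.57 and -0.56.

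The test of whether TiO2 acted differently with and without UV, the interaction, passed for no col gene by limma, and for 0.0% of all probe sets. At an unadjusted p below 0.05 there were 12 col genes (9.38%, background 5.15%), 10 lower (7.81%, background 2.34%) and 2 higher (1.56%, background 2.81%). The smallest p values were those of col-121 (-0.45, adjusted p = 0.761), col-120 (-0.59, adjusted p = 0.807) and col-153 (-0.51, adjusted p = 0.855) on the lower side. On the higher side they were col-78 (0.40), col-107 (0.26) and col-130 (0.55). The 95% intervals reached from -1.16 to 1.12 at their widest, and 122 of 128 lay within a 2-fold difference.

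The pattern of col-19, high in both UV groups and level otherwise, was shared by many genes. Over the 4 group means its correlation was highest with clec-79, F55D12.6, ubl-5, C49F5.6 and spas-1, each at r of 0.99999 or more. With only 4 points such values are common: 1985 of 17117 genes (11.6%) and 32 of the 127 other col genes (25.2%) reached r = 0.99. The size of the UV change in these 5 genes ran from 0.21 in clec-79 to 1.87 in ubl-5, beside 1.13 in col-19.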

How the data were processed

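Biotin-labelled product of 300 ng total RNA was hybridised, per the labels' protocols. The deposited log2 values were made by the authors with GCOS, Affymetrix Expression Console and RMA, per the submitters' processing notes. Their versions are not given in the sources used here. Because RMA includes quantile normalization, a general loss of RNA would not show, and the number of arrays (12, 3 a group) limits precision.

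Of 22625 probe sets, 77 controls were left out. Symbols came from the platform annotation, where 20766 probe sets had 1, 887 several and 895 none, and RefSeq matched 20701 and changed 0. Group means were fitted on the 22548 probe sets with limma 3.58.1 in R 4.3.3 (lmFit, eBayes, 8 residual and 4.37 prior degrees of freedom), with no filter, no replicate block and two-sided tests. The fit was tested on simulated data. Deviations of same-numbered arrays from their group means had mixed correlations (from -0.714 to 0.501, 8 of 18 over 0.1). With so few arrays a group, these deviations are tied to each other, so whether numbers pair samples could not be decided.

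Members and lists were chosen with earlier results of these data known. Named genes are the 10 largest called changes each way without overlap against control (5 otherwise), where none passed the 3 smallest p-values in each direction, the 10 brightest members and the lists' members. Alternatives covered normalization, centring, filtering, weights, prior, probe sets and left-out arrays. No sequence was used.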

Additional observations from a re-analysis of the deposited data

Results flagged for a closer look

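The arrays of col-153 separated in opposite directions with TiO2 in the absence and presence of UV, and the gene was picked for this. Without UV the TiO2 arrays read 6.99, 7.24 and 7.10, all above the control arrays at 6.84, 6.97 and 6.55. With UV the UV+TiO2 arrays read 6.94, 6.86 and 6.72, all below the UV arrays at 7.02, 7.02 and 7.04. Neither change passed by limma (0.32, adjusted p = 0.966, and -0.19, adjusted p = 0.873). Such opposite separation was found in 1 of 128 col genes (0.781%) and in 0.346% of all probe sets. The difference of both TiO2 changes was -0.51 (SE 0.16), and limma's interaction test did not pass (adjusted p = 0.855).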

How the results depend on the processing

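For col genes called after UV, leaving out each array in turn gave 66 to 83 rises and 16 to 17 falls against control, 60 to 85 and 16 to 20 for UV+TiO2 against control, and 65 to 84 and 14 to 19 for UV+TiO2 against TiO2. With a replicate block the counts were 71 and 17, 72 and 19, and 77 and 17, and the block called 0 genes for TiO2, for UV+TiO2 against UV, for the interaction and for the averaged TiO2 contrast. Leaving out genes on _s_at or _x_at probe sets, which removes 50 members, gave 45 and 8, 46 and 8, and 52 and 9. Array weights gave 1 fall for TiO2 (col-39), 20 falls and 1 rise for UV+TiO2 against UV, and 11 falls for the averaged contrast. For UV+TiO2 against UV, 1 fall passed with quantile normalization, median centring, only the arrays compared or the mean of a gene's probe sets, 2 with the array SD as a covariate (added after seeing the data), and 0 to 1 with single arrays left out. The averaged contrast had 0 falls with quantile normalization, 2 with a trended and robust prior, 2 with the array SD as a covariate, and 0 to 1 with single arrays left out. Shares over all probe sets under these alternatives are not given here, so these counts have no background beside them. The cause was not tested. No named result that passed turned its direction under any alternative, and none that had not passed then passed in the other direction. A change of sign in results that passed neither way was not counted. Of 99 named results, 86 kept their side of the threshold throughout. Only 3 arrays a group and signals near the array maximum limit what could be measured for col-119 and col-124.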
